A study of Mus musculus with 6 samples.

Results

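The methyl-CpG binding proteins read DNA methylation: they attach to DNA that carries methyl groups on cytosines of CpG dinucleotides and bring repressive enzymes to it. Of the 9 genes considered, chosen by symbol, 7 had an array row that named them alone, out of 30142 genes measured that way: Mbd1, Mbd2, Mbd3, Mbd4, Mbd6, Zbtb4 and Zbtb33. Zbtb38 was named only on a row that also carried a second gene, and Mbd5 was named on none, so neither was analysed here. The 7 genes had 1 row each, and no other row repeated their values.

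RNA came from mouse acute myeloid leukaemia induced by MLL-AF9, a fusion oncogene, on 3 arrays from littermate controls and 3 from Dnmt3b-KO leukaemia. Both groups carried the oncogene and grew in recipient mice; cells were collected from the marrow when disease had reached its final stage and were sorted. Dnmt3b encodes a methyltransferase that methylates CpGs not methylated before. The question is whether genes that read the mark differ when this writer has been deleted. The deleted exons, any Cre line and the sorting markers are not given in the sources used here, nor do they say whether arrays come from different mice, so the p-values cover only the spread among these arrays, part of which may be technical. In such pooled-cell RNA, fewer cells of a type and less RNA per cell cannot be told apart.

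The proteins form separate classes. Mbd1, Mbd2, Mbd3 and Mbd4 share the methyl-CpG binding domain that names them: Mbd1 works with enzymes that methylate histone H3, Mbd2 and Mbd3 are alternative subunits of the NuRD deacetylase complex, and Mbd4 is a glycosylase that removes thymine where methylated cytosine has deaminated. Mammalian Mbd3 has lost selective binding to methylated CpG, and Mbd5 and Mbd6 have a related domain but act with the PR-DUB histone H2A deubiquitinase. Zbtb33 (Kaiso), Zbtb4 and Zbtb38 bind through zinc fingers, and Kaiso prefers methylated CGCG.

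RefSeq promoter windows (GRCm38.p6, 250 bases before to 50 after a start) were matched for 5 of the 7 measured genes. Those of Mbd4, Zbtb33 and Zbtb4 are shown because, on the knockout array that stood apart, these genes had the furthest lower value, a moderately lower value and the only higher value. Capitals mark CpG dinucleotides, and each sequence runs 5′ to 3′ on the strand of its gene.
Mbd4, chr6:115853292-115853591, minus strand: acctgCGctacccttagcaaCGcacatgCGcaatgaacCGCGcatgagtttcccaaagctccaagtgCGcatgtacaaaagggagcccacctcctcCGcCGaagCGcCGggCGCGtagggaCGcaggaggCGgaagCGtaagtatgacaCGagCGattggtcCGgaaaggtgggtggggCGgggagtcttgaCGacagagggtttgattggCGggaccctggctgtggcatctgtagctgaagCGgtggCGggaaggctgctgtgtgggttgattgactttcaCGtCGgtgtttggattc
Zbtb33, chrX:38189543-38189842, plus strand: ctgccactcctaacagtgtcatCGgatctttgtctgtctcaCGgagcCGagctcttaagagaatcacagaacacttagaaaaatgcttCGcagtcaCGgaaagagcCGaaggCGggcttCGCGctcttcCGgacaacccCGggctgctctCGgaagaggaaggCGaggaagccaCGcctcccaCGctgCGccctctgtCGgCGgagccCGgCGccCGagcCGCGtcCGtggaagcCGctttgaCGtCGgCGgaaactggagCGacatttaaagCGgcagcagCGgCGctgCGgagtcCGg
Zbtb4, chr11:69765662-69765961, plus strand: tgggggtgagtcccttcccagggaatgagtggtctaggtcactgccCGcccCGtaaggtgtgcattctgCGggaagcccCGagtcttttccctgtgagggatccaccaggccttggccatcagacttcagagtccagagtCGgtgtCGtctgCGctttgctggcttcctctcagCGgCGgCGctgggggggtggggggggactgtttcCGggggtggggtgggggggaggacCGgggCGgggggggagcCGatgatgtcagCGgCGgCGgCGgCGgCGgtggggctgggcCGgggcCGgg

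The Mbd4 window held 25 CpGs, the Zbtb33 window 34 and the Zbtb4 window 22, against a median of 7 over 32851 windows. At least as many CpGs as in these windows were found in 18.4%, 7.73% and 23.1% of all windows. The letters CGCG, which read the same on both strands, occurred at 2 places in the Mbd4 window, 2 in the Zbtb33 window and 0 in the Zbtb4 window, and were present in 38.0% of all windows. The Kaiso site TCCTGCNA, which holds no CGCG, was searched on both strands. It was in none of these 3 windows and in 4.96% of all windows. Of the 11 windows used for the genes considered, 1 held it, that of Mbd3. These matches describe letters only, and methylation was not measured here.

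The targeted gene was checked first. Dnmt3b had deposited log2 values of 6.76, 6.83 and 6.78 in control replicates 1 to 3, against 6.47, 6.63 and 5.96 on the knockout arrays in the same order. Every knockout value was under every control. The fitted difference, -0.44 ± 0.17 (SE), had an adjusted p of 0.78 by limma. Which exons its row reads was not settled, so the labels are checked only weakly by it.

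Dnmt3b-KO replicate 3 stood apart from the other arrays. Its correlation with them across genes was 0.980 to 0.982, while theirs with each other was 0.998 to 0.999. Of 14 macrophage markers, 10 were more than 1 log2 unit higher there than the mean of Dnmt3b-KO replicates 1 and 2, with a mean log2 value over the list of 11.18 against 7.26 to 7.42 in control and 7.26 to 7.44 in those replicates. Vcam1, also of that list, was lower there, at 9.04 against 10.61 to 10.77 elsewhere. Cd163 (4.89) and C1qa (4.84) remained under 5.62, the highest value of any background probe. Apoe, above that value on every array, measured 6.62 there and 6.54 to 6.77 elsewhere. Of 10 markers of MLL-AF9 myeloid leukaemia, all brighter than the median gene, 8 were more than 0.5 lower, with a list mean of 11.55 against 12.27 to 12.40 on the other arrays. Kit measured 9.71 there and 11.02 to 11.42 elsewhere. The other 2, Itgam and Ptprc, were higher there, by 1.49 and 0.89. Of these 10 markers limma called 0 over 6 arrays. Without replicate 3 it called 1 higher, Meis1 (0.65 ± 0.06, adjusted p = 0.011), and 1 lower, Cd34 (-1.01 ± 0.15, adjusted p = 0.038). Of 8 mast cell, basophil and eosinophil markers, limma called 0 over 6 arrays, while 6 fell without replicate 3, with a list mean of 7.67 to 7.69 in control, 6.08 to 6.41 in Dnmt3b-KO replicates 1 and 2 and 5.27 on replicate 3. Of the measured erythroid, lymphocyte and stromal markers 0 passed in either comparison. The erythroid marker Alas2 measured 7.38, 7.23 and 6.67 in control and 6.11, 5.78 and 5.63 in Dnmt3b-KO. Its difference was -1.25 ± 0.22 (SE; limma, adjusted p = 0.57) over 6 arrays and -1.15 ± 0.22 (adjusted p = 0.071) over 5. Among these markers Cd79b and Pecam1 differed on replicate 3 from the mean of replicates 1 and 2, by -1.51 and -1.97. The rest were within 0.5, but those other than Alas2 lay under 5.62, the highest background probe, on every array. A change in them could therefore be missed. The part of these shifts in the results was not tested, and the values of the 7 genes are given with and without that array.

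None of the 7 genes passed the test between Dnmt3b-KO and control. Over 6 arrays limma called 0 of 7 at an adjusted p under 0.05, where it called 0% of all genes, and 0 of 7 had an unadjusted p under 0.05, against 6.37% of all genes. Without Dnmt3b-KO replicate 3 it again called 0 of 7, where it called 1.69% of all genes, and 0 of 7 had an unadjusted p under 0.05, against 15.5% of all genes. The median difference of the 7 genes was -0.14 over 6 arrays and 0.03 over 5, and that of all genes -0.0036 and -0.01. A difference that misses the threshold is not shown to be absent: over 5 arrays the 95% intervals of the 7 genes lay between -0.27 and 0.36 log2 units, and over 6 arrays between -1.30 and 0.48.

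**Figure D1:**
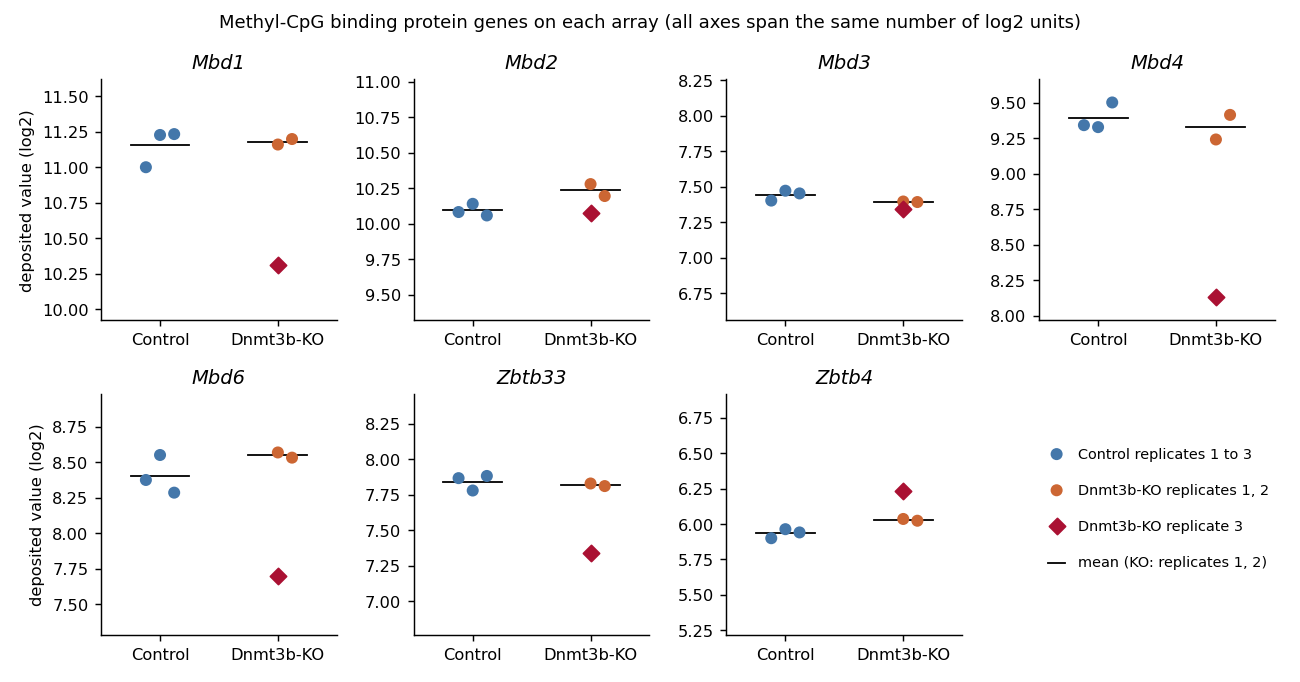
Deposited log2 value (vertical axis) of each measured gene on the 3 control and 3 Dnmt3b-KO arrays, 1 point per array, with bars at the mean of the controls and of Dnmt3b-KO replicates 1 and 2. Every panel spans the same number of log2 units, so Mbd4, Mbd1 and Mbd6 can be seen to lie far lower on Dnmt3b-KO replicate 3 (diamond), while Mbd2 and Mbd3 range over 0.22 and 0.13 log2 units.

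Mbd4, the thymine glycosylase, ranged most over the 6 arrays, by 1.37, but without replicate 3 by 0.26, less than Mbd6 (0.28). It measured 9.33, 9.50 and 9.34 on the control arrays and 9.24, 9.42 and 8.13 on the knockout arrays, replicates in order. Knockout replicate 1 lay just under the controls, replicate 2 among them and replicate 3 far below them. The difference was -0.46 ± 0.34 (SE; limma, adjusted p = 0.83) over 6 arrays and -0.06 ± 0.08 (adjusted p = 0.82) without replicate 3. In humans, inherited loss of MBD4 leads to leukaemia with many CpG mutations; these arrays hold no mutation data.

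Mbd1 joins its methyl-CpG binding domain to a further set of zinc fingers. It measured 11.23, 11.23 and 11.00 in control and 11.16, 11.20 and 10.31 on the knockout arrays. Replicates 1 and 2 lay inside the control range and replicate 3 below it. The difference was -0.27 ± 0.25 (adjusted p = 0.84) over 6 arrays and turned to 0.03 ± 0.09 (adjusted p = 0.94) without replicate 3.

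Mbd6, the PR-DUB partner, followed the same course. It measured 8.55, 8.29 and 8.38 in control and 8.57, 8.53 and 7.70 on the knockout arrays. Replicates 1 and 2 were at the upper end of the controls, and replicate 3 was below all of them. The difference of -0.14 ± 0.25 (adjusted p = 0.91) turned to 0.15 ± 0.09 (adjusted p = 0.52) without replicate 3.

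Zbtb33, which encodes Kaiso and lies on the X chromosome, measured 7.78, 7.88 and 7.87 in control and 7.83, 7.81 and 7.34 in Dnmt3b-KO. Again only replicate 3 lay below the controls. The difference was -0.18 ± 0.14 (adjusted p = 0.83) over 6 arrays and -0.02 ± 0.06 (adjusted p = 0.92) over 5. Replicate 3 also differed in sex-linked RNA: Xist, which coats and silences the inactive X, measured 15.44 there and 16.66 to 16.79 elsewhere, and the Y-linked Eif2s3y 8.26 there and at most 4.54 elsewhere. Of 819 X-linked genes above the median gene, 23.2% were more than 0.5 lower on replicate 3, against 23.3% of all genes above the median gene.

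Mbd2 and Mbd3, the NuRD subunit genes among the 7, ranged least over 6 arrays. Without replicate 3, Mbd2, at 0.22, ranged more widely than Zbtb33 (0.10) and Zbtb4 (0.14). Mbd2 measured 10.14, 10.06 and 10.08 in control and 10.28, 10.20 and 10.08 in Dnmt3b-KO, with replicates 1 and 2 above every control and replicate 3 among them. Its difference was 0.09 ± 0.07 (adjusted p = 0.83) over 6 arrays and 0.14 ± 0.06 (adjusted p = 0.33) over 5, the smallest adjusted p of the 7 genes there. Mbd3 measured 7.47, 7.45 and 7.40 in control and 7.40, 7.39 and 7.34 in Dnmt3b-KO. All 3 knockout values lay below the controls, the highest of them just under control replicate 3. The difference was -0.06 ± 0.05 (adjusted p = 0.83) over 6 arrays and -0.05 ± 0.05 (adjusted p = 0.77) over 5.

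Zbtb4, a zinc finger protein that binds a lone methylated CpG, was the only gene of the 7 whose value was highest on replicate 3. It measured 5.96, 5.94 and 5.90 in control and 6.04, 6.02 and 6.24 in Dnmt3b-KO. The knockout values were above every control, replicate 3 by most. The difference was 0.16 ± 0.08 (adjusted p = 0.82) over 6 arrays and 0.09 ± 0.05 (adjusted p = 0.49) over 5. Its lowest value, 5.90, was close to the 5.62 of the highest background probe.

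Over 6 arrays the groups did not overlap for 2 of the 7 genes, Mbd3 and Zbtb4, where they did not overlap for 14.9% of all genes and 18.8% of genes above the median gene. Over 5 arrays they did not overlap for 3 of the 7, against 32.5% of all genes. These were Mbd2 and Zbtb4 on the higher side, where 15.1% of all genes lay, and Mbd3 on the lower, where 17.4% lay. Neither count gives a result about these genes as a set.

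**Figure D2:**
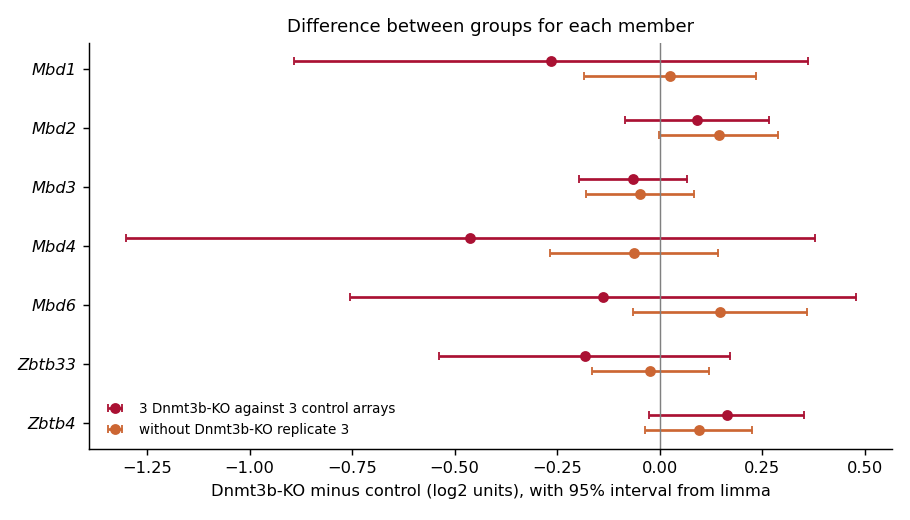
Dnmt3b-KO minus control (horizontal axis, log2 units) for each measured gene over 6 arrays and without Dnmt3b-KO replicate 3; points are limma estimates and bars their 95% intervals. Every interval includes 0, and those of Mbd4, Mbd1 and Mbd6 narrow when replicate 3 is left out, to at most 0.36 on the higher side and -0.27 on the lower.

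The 7 genes differed among themselves on Dnmt3b-KO replicate 3. Against the mean of replicates 1 and 2, Mbd4 was lower there by a difference of -1.20, Mbd1 by -0.87, Mbd6 by -0.85 and Zbtb33 by -0.48. Mbd2 differed by -0.16, Mbd3 by -0.05 and Zbtb4 by 0.21. These are differences of 1 array from the mean of 2 others and have no test. Mbd4, Mbd1, Mbd6 and Zbtb33 thus had lower values, and Mbd2 and Mbd3 values close to those of replicates 1 and 2.

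Many other genes had shifted values on that array. It lay below every other array for 5 of the 7 genes, against 31.3% of all genes and 51.5% of genes above the median gene, a set that holds all 7. It was lower by more than 0.5 for 3 of the 7, against 11.9% of all genes and 23.3% of those above the median gene, and by more than 1 for 1 of the 7, Mbd4, against 2.94% of all genes and 5.86% of those above the median gene. It was higher by more than 0.5 for 0 of the 7, against 9.03% of all genes, and lay above every other array for 1 of the 7, Zbtb4, against 33.9% of all genes. The median shift of the 7 genes was -0.48, that of genes above the median gene -0.15 and that of all genes 0.02. The median gene, at 4.79, was itself under 5.62, the highest background probe. Genes above the median gene therefore include some at background level.

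**Figure D3:**
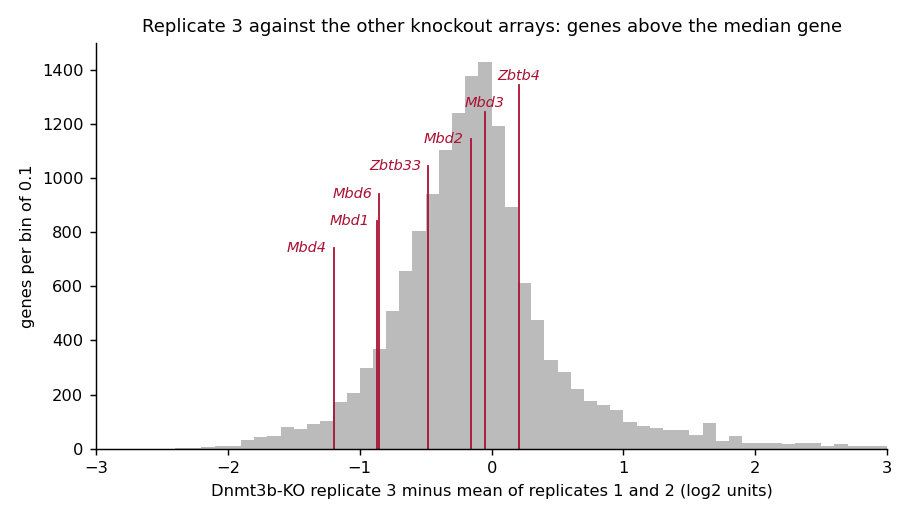
Number of genes (vertical axis) by the difference of Dnmt3b-KO replicate 3 from the mean of replicates 1 and 2 (horizontal axis, log2 units, bins of 0.1, drawn from -3 to 3) among 15071 genes above the median gene, with red lines at the 7 measured genes. Mbd4 at -1.20 lies in the lower tail, and Mbd1, Mbd6 and Zbtb33 in the lower shoulder. Mbd2 and Mbd3 lie near the peak, and Zbtb4 at 0.21 on its higher side.

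Only Mbd4 ranged over more than 1 log2 unit. The genes whose centred values lay closest to its own over the 6 arrays, among 15070 others above the median gene, were Bckdhb, Ccdc15 and Piga, with root mean square differences of 0.03 for each. Bckdhb, which encodes a subunit of the branched-chain keto acid dehydrogenase, measured 10.46, 10.65 and 10.44 in control and 10.44, 10.56 and 9.27 in Dnmt3b-KO. Each of these genes, like Mbd4, had its lowest value on replicate 3. They were picked for likeness to Mbd4 over these same arrays, so this was fixed by the choice.

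Few partner genes passed either. Across 8 lists with 62 measured genes other than Dnmt3b, limma called 0 over 6 arrays, against 0% of all genes, and 1 over 5, against 1.69%. An unadjusted p under 0.05 was found for 3 over 6 arrays, against 6.37% of all genes, and for 8 over 5, against 15.5%. Among 12 NuRD subunits 0 passed in either comparison, with a median difference of -0.06 over 6 arrays and -0.01 over 5. The smallest unadjusted p over 5 arrays belonged to Mta1, a NuRD scaffold gene, with a difference of -0.17 ± 0.06 (SE; limma, adjusted p = 0.22). Over 6 arrays Mta1 differed by -0.07 ± 0.11 (adjusted p = 0.89), and on replicate 3, at 10.08, it lay above every control. Over 6 arrays the smallest p belonged to Cdk2ap1, with -0.30 ± 0.20 (adjusted p = 0.83), which became -0.06 ± 0.05 (adjusted p = 0.69) without replicate 3. On replicate 3, 8 of 12 were within 0.5 of replicates 1 and 2, against 63.6% of genes above the median gene, while 3 were lower and 1 higher. The last was Chd3, a NuRD remodelling ATPase, at 7.15 there and at 5.10 to 5.20 on the other arrays, which is not above the highest background probe.

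Of 7 measured genes for H3K9 methylation and chromatin assembly, which work with Mbd1, 0 passed, with medians of -0.17 and -0.06. Atf7ip2, a homologue of the SETDB1 cofactor Atf7ip, came nearest over 5 arrays. It measured 8.86, 8.94 and 8.96 in control and 9.31, 9.21 and 7.72 in Dnmt3b-KO, so that replicates 1 and 2 lay above the controls and replicate 3 below them. Its difference was -0.17 ± 0.43 (adjusted p = 0.94) over 6 arrays and 0.34 ± 0.06 (adjusted p = 0.070) over 5, and over 5 it passed when only genes above the median gene were tested (adjusted p = 0.037). Over 6 arrays Cbx5, which encodes the heterochromatin protein HP1 alpha, had the smallest p, with -0.41 ± 0.20 (adjusted p = 0.82), which became -0.19 ± 0.06 (adjusted p = 0.22) without replicate 3. The list had a median shift of -0.67 on replicate 3, and 4 of its 7 genes were lower there by more than 0.5, against 23.3% of genes above the median gene; this has no test.

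Of 9 PR-DUB genes 0 passed, with medians of -0.0041 and -0.02. Foxk2, a forkhead factor that binds the complex, was below the controls on all 3 knockout arrays, at 7.94, 8.15 and 8.21 against 8.39, 8.36 and 8.34, with a difference of -0.26 ± 0.08 (adjusted p = 0.71) over 6 arrays and -0.31 ± 0.08 (adjusted p = 0.12) over 5. On replicate 3, 7 of these 9, of which 8 were above the median gene, were within 0.5 of replicates 1 and 2. Of 7 repair genes around Mbd4 0 passed. Polb, the gap-filling polymerase of base excision repair, measured 8.63, 8.58 and 8.67 in control and 8.36, 8.49 and 8.34 in Dnmt3b-KO, a difference of -0.22 ± 0.07 (adjusted p = 0.68) over 6 arrays and -0.20 ± 0.07 (adjusted p = 0.22) over 5. On replicate 3, 6 of the 7 were within 0.5 of replicates 1 and 2, against 63.6% of genes above the median gene; this is 1 array and has no test.

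Of 5 measured NCoR and Kaiso cofactor genes 0 passed. Ctnnd1, which encodes p120 catenin, the protein through which Kaiso was found, differed by 0.31 ± 0.32 (adjusted p = 0.84) over 6 arrays, where it was 9.87 on replicate 3 and 8.69 to 8.86 elsewhere, and by -0.07 ± 0.07 (adjusted p = 0.76) over 5. Tbl1xr1, an NCoR subunit gene, differed by 0.14 ± 0.07 (adjusted p = 0.47) over 5 and by -0.03 ± 0.15 (adjusted p = 0.98) over 6. Of 5 other genes with an MBD or SRA domain 0 passed. Baz2b, a bromodomain gene, differed by 0.33 ± 0.07 (adjusted p = 0.093) over 5 arrays and passed among genes above the median gene (adjusted p = 0.049). Over 6 arrays it differed by -0.14 ± 0.39 (adjusted p = 0.95). On replicate 3 it measured 13.42, on the opposite side of the controls, which ran from 14.38 to 14.55. Uhrf1, which reads hemimethylated CpG after replication, differed by -0.36 ± 0.22 (adjusted p = 0.83) over 6 arrays and by -0.12 ± 0.10 (adjusted p = 0.69) over 5.

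The writers and erasers of the mark showed 0 of 7 past the threshold in either comparison, Dnmt3b included. Tet3, a dioxygenase that oxidises methylcytosine, had the smallest p over 6 arrays, with -0.21 ± 0.08 (adjusted p = 0.76; -0.16 ± 0.07 over 5 arrays), and Dnmt3b itself over 5 arrays, with -0.24 ± 0.07 (adjusted p = 0.16). Among 12 genes of a list of germline genes known for silencing by promoter methylation in other tissues, 1 rose over 5 arrays. There limma called 1.69% of all genes. Dmc1, a meiotic recombinase, measured 9.90, 9.89 and 9.72 in control, far above the background probes, and 11.27, 11.21 and 9.68 in Dnmt3b-KO. Its rise of 1.40 ± 0.07 (SE; adjusted p = 0.0029) was therefore absent from replicate 3, and over 6 arrays its difference was 0.88 ± 0.44 (adjusted p = 0.82). Over 5 arrays Dmc1 lost the threshold without Dnmt3b-KO replicate 1, where its difference was 1.38 with a knockout group of 1 array (adjusted p = 0.053), and over 6 it gained it with array weights (adjusted p = 0.034). The median difference of that list was 0.03 over 6 arrays and -0.0033 over 5, and 3 of its 12 genes were above the median gene. Its genes other than Dmc1 lay under 5.62, the highest background probe, on the controls and on Dnmt3b-KO replicates 1 and 2. The list median therefore describes mostly background signal and could miss a change.

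**Figure D4:**
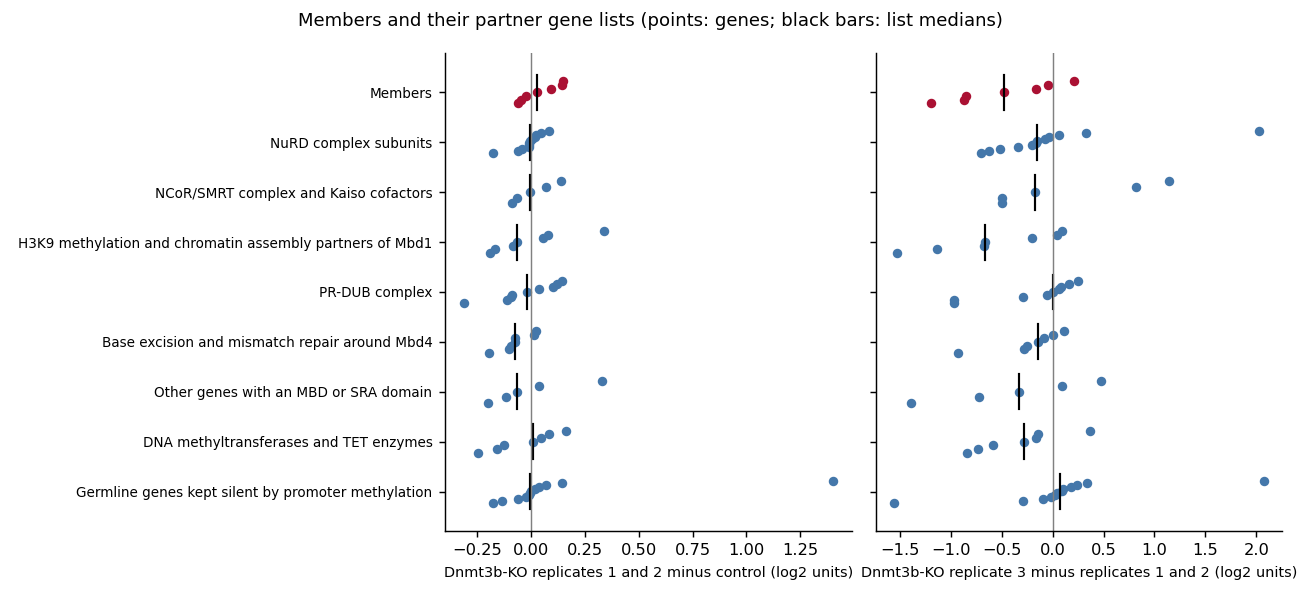
Differences (horizontal axes, log2 units) of Dnmt3b-KO replicates 1 and 2 from control (left) and of Dnmt3b-KO replicate 3 from replicates 1 and 2 (right) for the measured methyl-CpG binding genes (red) and each partner list (blue), 1 point per gene, with black bars at list medians. On the left points other than Dmc1, at 1.40, lie between -0.31 and 0.34; on the right the spread is wider, from Atf7ip2 and Dmc1 at the lower end to Chd3 and Tdrkh at the upper, whose values on the other arrays are not above the highest background probe, so that their size and order are not exact.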

How the data were processed

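Sorted leukaemia cells were profiled on 6 Affymetrix mouse arrays. The values were deposited in log2 units after RMA (version not given), per the submitters' processing notes. They reach 19.59, beyond the 16 that a 16-bit scanner allows, so the scale was altered by some step not recorded here, and differences stay in log2 units and are not turned into folds. Of 72688 rows, 30604 carried exactly 1 symbol in the platform annotation, which is old; 827 symbols were updated by gene identifier, and each of 30142 genes was represented by its row of highest mean. Groups were compared with limma 3.58.1 (R 4.3.3; lmFit, then eBayes), p-values were adjusted by Benjamini-Hochberg across all genes and called under 0.05, over 6 arrays and without Dnmt3b-KO replicate 3, whose values are also shown apart. The fits were tested on simulated data. Precision is limited by the small number of arrays.

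The members and the gene lists were chosen with earlier results of these data known. Named genes are the members, Dnmt3b, and for each list the genes past the threshold or else the one with the smallest p. For members ranging over more than 1 log2 unit, they include the 3 genes with the smallest root mean square difference of centred values. Chd3, Tdrkh, Kit, Itgam, Ptprc, Meis1, Cd34, Vcam1, Cd163, C1qa, Apoe, Alas2, Cd79b, Pecam1, Xist and Eif2s3y were chosen after their values were seen. Lists are described by counts and medians, with no set test. Correlations of deviations between same-numbered control and Dnmt3b-KO arrays were 0.13, 0.03 and 0.11, against -0.12 to 0.09 between differently numbered ones. These values do not settle whether the numbers mark pairs, and the main fits did not take them as pairs. The alternatives tried were the replicate number as a block, array weights, a robust fit with a variance trend, centring, a second quantile normalization, a filter on dim genes, the mean of a gene's rows and leaving out each array.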

Additional observations from a re-analysis of the deposited data

How the results depend on the processing

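The count of methyl-CpG binding genes past the threshold was 0 of 7 over 6 arrays and over 5 under every alternative run, and with the replicate block it was 0 in both. Over 6 arrays limma called 0 of all genes tested in the main fit and most alternatives, so a count of 0 of 7 was fixed there. The exceptions were array weights, with 103 genes called, and leaving out Dnmt3b-KO replicate 3, with 509. Over 5 arrays it called 43 to 996 genes where both knockout arrays were kept. No member passed under any alternative, but the sign of some differences turned. With array weights (0.11 for Dnmt3b-KO replicate 3, 1.26 to 2.17 for the rest) the 6-array differences turned to 0.0022 for Mbd1, 0.10 for Mbd6, -0.020 for Ctnnd1, 0.12 for Tbl1xr1, 0.28 for Atf7ip2 and 0.30 for Baz2b. Over 5 arrays the replicate block turned Mbd1 to -0.051. With 1 array left out, 6-array differences ran from -0.42 to 0.026 (Mbd1), -0.29 to 0.15 (Mbd6), -0.066 to 0.52 (Ctnnd1), -0.13 to 0.14 (Tbl1xr1), -0.45 to 0.34 (Atf7ip2) and -0.38 to 0.33 (Baz2b), each turning without Dnmt3b-KO replicate 3, and Tbl1xr1 also without control replicate 2. The 5-array differences ran from -0.051 to 0.066 (Mbd1), -0.15 to 0.024 (Mbd4) and -0.24 to 0.0084 (Uhrf1), turning without control replicate 3 for Mbd1 and without Dnmt3b-KO replicate 1 for the others; a knockout group of 1 array takes its spread from the controls. Partner genes past the threshold over 6 arrays, 0, became 1 with array weights and 0 to 1 with 1 array left out. Over 5 arrays 1 became 3 among genes above the median gene, where fewer genes are tested, and 0 to 1 with 1 more array left out. The cause of the other changes was not tested. All 7 genes were brighter than every background probe on all arrays, Zbtb4 by the least.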
